A study of Mus musculus with 51 samples.

Results

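Of the genes of blood coagulation that the liver makes, 10 were followed through RNA sequencing of mouse hepatocytes and liver. They are F2, F5, F7, F9, F10, F11, F12 and F13b, which encode coagulation factors, and Proc and Serpinc1, which encode the anticoagulants protein C and antithrombin. They were chosen by symbol from the 33773 genes of the deposited expression matrix; all 10 were present and all 10 passed the filter on low values. Adult hepatocytes came from 4 groups of mice. FoxA triple null hepatocytes (n = 4 libraries) came from FoxA1L/L FoxA2L/L FoxA3-/- mice injected at 8 weeks of age with an adeno-associated virus of serotype AAV8 that carries Cre under the hepatocyte-specific Tbg promoter. FoxA3 null hepatocytes (n = 4) came from mice of the same alleles that received the virus with GFP in place of Cre, so these controls also lack FoxA3. FoxA1/A2 lox hepatocytes (n = 3) carried the floxed alleles without a deletion. FoxA1/A2 Cre alfp hepatocytes (n = 4) had lost FoxA1 and FoxA2 and kept FoxA3. The name alfp is not spelled out in the labels. The transgene commonly so called joins albumin and alpha-fetoprotein control elements and acts from fetal life. The time of deletion may therefore differ from that in the triple null. Whole liver was labelled HNF4a control (n = 2) or HNF4a null (n = 4), the latter given as depleted in adult liver, by means not given in the sources used here. Sex and age of the lox, Cre alfp and HNF4a mice are not given either, and nothing says that libraries of a group came from separate animals, so p-values measure the spread between these libraries, which may be technical.

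Coagulation is a cascade in which zymogens are cut into active proteases. Tissue factor with factor VII, or the contact system with factors XII and XI, activates factors IX and X, and factor X with its cofactor factor V turns prothrombin into thrombin, which clots fibrinogen; factor XIII then crosslinks the clot. Antithrombin and protein C hold the cascade in check. Hepatocytes make most of these proteins, and prothrombin, factors VII, IX and X and protein C need vitamin K to become functional. FoxA1, FoxA2 and FoxA3 are forkhead factors and HNF4a is a nuclear receptor, and both kinds bind many control regions of hepatocyte genes.

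Expression was given as RPKM, reads per kilobase of transcript, scaled to the mapped reads of the library, so levels of different genes can be compared per length. Absolute depth is unknown; relative to the shallowest library, depth was 2.01 to 2.42 in FoxA3 null and triple null, 2.24 to 4.07 in lox and Cre alfp and 1 to 1.1 in liver. The hepatocyte ranges overlap, and no label names a batch. Any difference in preparation could not be told apart from FoxA3 genotype where the first pair of groups is set against the second. Foxa2 lay between 0.243 and 0.47 RPKM in triple null libraries, against 11.1 to 20.6 in their FoxA3 null controls, and between 0.991 and 1.26 in Cre alfp, against 6.84 to 19.2 in lox. For Foxa1 the same ranges were 3.04 to 3.63 against 6.14 to 10.1 RPKM, and 1.14 to 1.34 against 4.71 to 8.21 RPKM. Foxa3 was at or under 0.0114 RPKM in FoxA3 null and triple null libraries. Hnf4a went against its label: it lay between 487 and 545 RPKM where the label is HNF4a null and between 118 and 126 in control liver. The matrix holds 1 value per gene, so a deleted exon cannot be seen in it. The summed RPKM of 12 hepatocyte markers (Alb, Apoa1, Ttr and others) was lower in triple null hepatocytes, at 14500 to 19400 against 45300 to 52100 in FoxA3 null. It was also lower in liver labelled HNF4a null, at 13200 to 14700 against 30100 to 31100 in control liver. The summed RPKM of 9 neutrophil and monocyte markers was 9.71 to 111 in triple null hepatocytes, against 0.834 to 2.05 in FoxA3 null ones, with Ly6g at 0 in both groups and Mpo at 0 in FoxA3 null. That of 10 cholangiocyte markers was 138 to 236 in liver labelled HNF4a null, against 17.9 to 18.7 in control.

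The 4 promoters printed here were picked by the level of their genes or by a match to a searched motif (F11 and F9). F11 had the lowest level of the set in the triple null, and F12, F11 and F13b had the lowest in liver labelled HNF4a null. Each printed promoter is the 250 bases before the RefSeq start of transcription on build GRCm38.p6, written along the gene's strand, with motif matches in capitals. F11 lies on the minus strand at chr8:45262032-45262281, F9 on the plus strand at chrX:59999214-59999463, F12 on the minus strand at chr13:55426805-55427054 and F13b on the plus strand at chr1:139501457-139501706.
F11: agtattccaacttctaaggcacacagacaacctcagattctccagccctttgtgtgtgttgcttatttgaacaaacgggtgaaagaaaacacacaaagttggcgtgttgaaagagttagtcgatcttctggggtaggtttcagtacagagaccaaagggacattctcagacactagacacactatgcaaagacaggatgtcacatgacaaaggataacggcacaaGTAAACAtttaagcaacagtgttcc
F9: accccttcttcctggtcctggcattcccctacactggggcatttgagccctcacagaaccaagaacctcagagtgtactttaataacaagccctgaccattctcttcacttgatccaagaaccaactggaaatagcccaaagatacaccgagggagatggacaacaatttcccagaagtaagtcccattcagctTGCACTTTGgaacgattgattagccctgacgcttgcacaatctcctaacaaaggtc
F12: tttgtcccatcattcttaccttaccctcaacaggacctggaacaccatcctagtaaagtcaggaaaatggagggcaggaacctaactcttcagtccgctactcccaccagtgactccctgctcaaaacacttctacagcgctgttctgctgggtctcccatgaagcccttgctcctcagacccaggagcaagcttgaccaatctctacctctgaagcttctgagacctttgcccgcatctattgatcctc
F13b: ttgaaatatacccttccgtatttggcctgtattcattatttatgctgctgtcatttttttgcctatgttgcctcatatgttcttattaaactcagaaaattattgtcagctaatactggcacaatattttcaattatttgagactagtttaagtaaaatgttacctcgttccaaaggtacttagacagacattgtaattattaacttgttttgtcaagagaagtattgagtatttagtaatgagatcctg
The search took an HNF4a-type motif, CAAAGTNCA, and 4 FoxA-type motifs, TGTTTAC together with TATTTAC, as well as TGTTTGC together with TATTTGC, on both strands of windows from 250 bases before to 50 bases after the start. Promoters of 9 of the 10 genes were in the table; Proc was not matched. The capitals in F11 are a FoxA-type match 25 to 19 bases before the start, read as TGTTTAC on the opposite strand, and a further FoxA-type match, TGTTTGC on the opposite strand, lies 44 to 50 bases after it. The capitals in F9 are an HNF4a-type match 56 to 48 bases before the start, on the opposite strand. No match overlapped another. Of all 32851 promoters of this length, 13.5% held a FoxA-type match and 1.41% an HNF4a-type match; among the 9, there was 1 of each kind. The letters searched were not found in the windows of F12, F13b, F2, F5, F7, F10 or Serpinc1.

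In lox hepatocytes, where no FoxA gene was deleted, the 10 genes fell into a high and a low class. Serpinc1 (mean 760 RPKM), F2 (670 RPKM) and F12 (613 RPKM) led, and neighbours in this order overlapped between libraries. Proc followed at 427 RPKM and F10 at 296 RPKM, each apart from its neighbours. F9, F7, F5, F13b and F11 had means between 36.1 and 48 RPKM, and neighbours in that order overlapped. Control liver ranked Serpinc1 (724 RPKM) and F2 (597 RPKM) first and F11 last (11.8 RPKM), and its F12 level, 194 RPKM, stood below Proc at 227 RPKM.

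**Figure D1:**
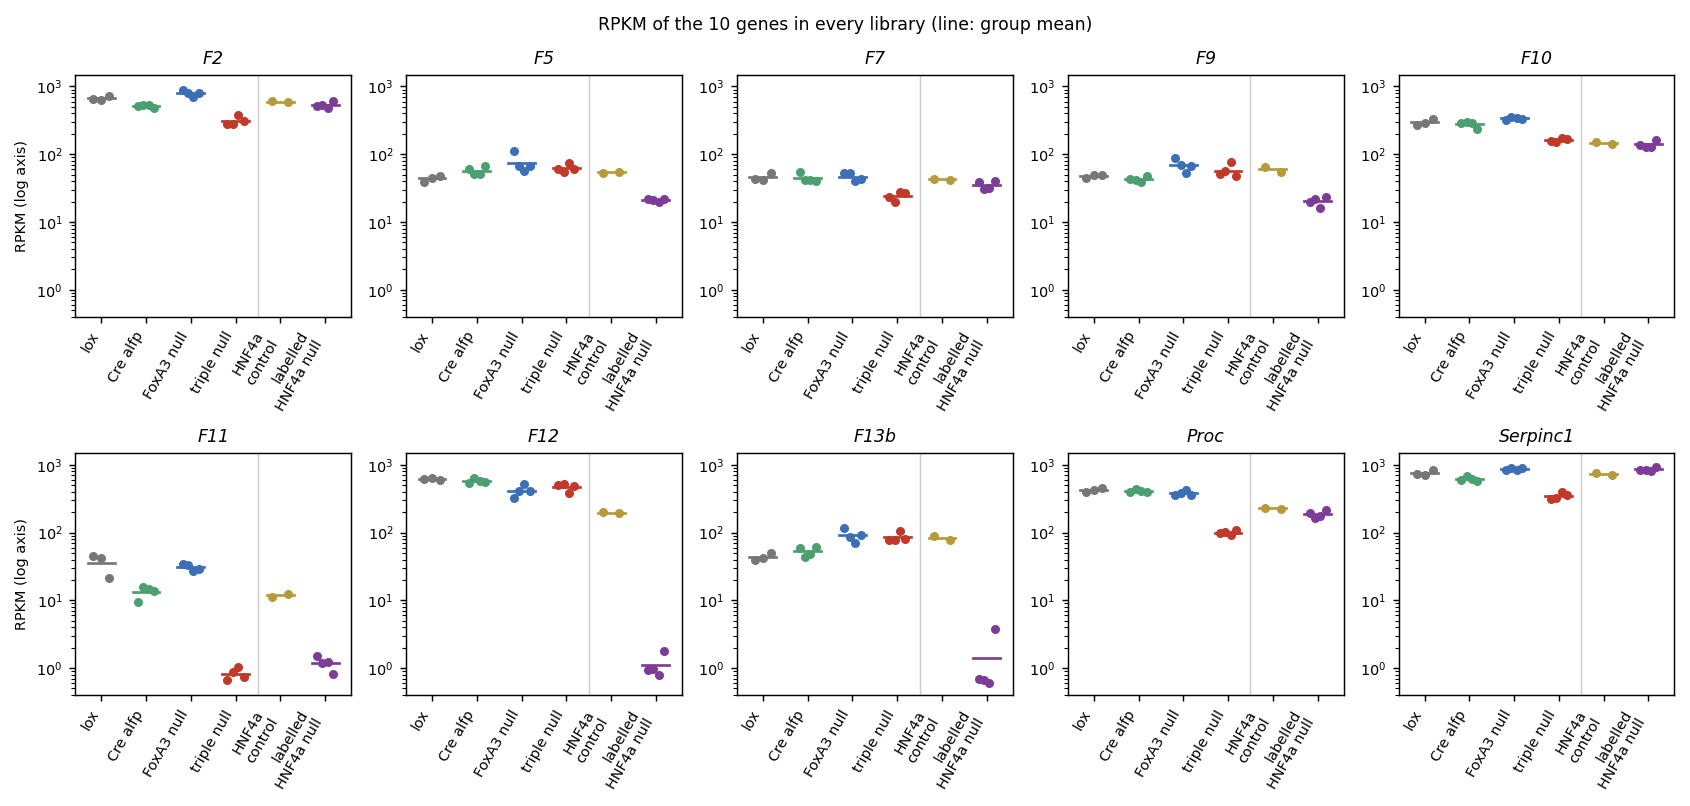
RPKM on a log axis (vertical) of each gene in every library (points) of the 6 groups (horizontal), with the group mean as a line; the grey line parts hepatocytes from liver. F11 sits under 1.1 RPKM in the triple null, and F12, F13b and F11 sit between 0.602 and 3.73 RPKM in liver labelled HNF4a null.

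Deletion of FoxA1 and FoxA2 in hepatocytes that already lack FoxA3 lowered 5 of the 10 genes, F11, Proc, F2, Serpinc1 and F10, and F11 was all but lost. A gene was called when its adjusted p was under 0.05 (limma on log2(RPKM + 1), Benjamini-Hochberg over all genes tested) and its log2 difference was at least 1. Of all 11500 genes tested, 3.95% were called lower. The median log2 difference of the 10 genes was -0.98, beside 0.05 over all genes. The fall of the hepatocyte marker sum given above moved with this result, with 8 of 12 markers called lower and a median log2 difference of -1.19. Markers of some other liver cells moved with it as well. Of Kupffer cell and macrophage markers 0 of 9 tested were called with limma, and of cholangiocyte markers 0 of 3. In both of these lists 0 had an unadjusted p under 0.05. The summed RPKM of 14 sinusoidal endothelium markers was 11.1 to 23.7 in the triple null, against 38.8 to 61.3 in FoxA3 null, with 3 of the 11 tested called lower, all 11 lower at an unadjusted p under 0.05 and a median log2 difference of -0.82. That of 11 stellate cell and fibroblast markers was 7.61 to 26.7, against 27.6 to 37.7, with 2 of 5 tested called lower. That of 5 erythroid markers was 5.94 to 21.7, against 33 to 47.3, although 2 of the 3 tested were called higher and 1 lower. Both tested neutrophil and monocyte markers were called higher. The part of these markers in the result was not tested. In such bulk libraries, fewer cells of a type and less RNA per cell cannot be told apart.

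F11 encodes factor XI, the zymogen that factor XIIa and thrombin activate and that in turn activates factor IX. It was at 34.3, 32.7, 26.8 and 29.1 RPKM in the FoxA3 null group, against 0.672, 0.885, 1.03 and 0.737 RPKM once FoxA1 and FoxA2 were deleted too. The groups were far apart, and the triple null kept 2.71% ± 0.52 (SD, n = 4) of the FoxA3 null mean. The log2 difference was -4.11 (SE 0.21, adjusted p = 3.74e-09), a scale that understates the change of a gene near 1 RPKM; the ratio of the mean RPKM was 36.9.

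The vitamin K dependent zymogens did not move alike. F2, which encodes prothrombin, was at 886, 802, 689 and 794 RPKM in the FoxA3 null group, against 279, 280, 383 and 305 RPKM in the triple null group, which kept 39.3% ± 6.2 (SD, n = 4). Its log2 difference was -1.35 (SE 0.12, adjusted p = 1.14e-06), and the highest triple null library lay well below the lowest control. F10, which encodes factor X, was at 320, 355, 345 and 335 RPKM in the FoxA3 null group, against 156, 149, 173 and 170 RPKM in the triple null group. Its groups did not overlap, with a log2 difference of -1.06 (SE 0.1, adjusted p = 3.35e-06), close to the minimum of 1. F7, which encodes the partner of tissue factor, was at 52.4, 52, 40.1 and 42.5 RPKM in the FoxA3 null group, against 23.4, 19.7, 27.9 and 26.9 RPKM in the triple null group. These groups did not overlap either, but the log2 difference of -0.91 (SE 0.14, adjusted p = 0.00027) stayed under the minimum and F7 was not called; quantile normalization called it. F9, which encodes factor IX, was at 87.2, 68.6, 53.5 and 66.5 RPKM in the FoxA3 null group, against 50.4, 55.8, 75.8 and 47.3 RPKM in the triple null group. The F9 groups overlapped (log2 difference -0.27, SE 0.16, adjusted p = 0.22).

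Both anticoagulants fell. Proc, the gene of protein C, which as an activated protease cuts factors Va and VIIIa, was at 356, 387, 424 and 362 RPKM in the FoxA3 null group, against 97.8, 102, 93.2 and 108 RPKM in the triple null group. The triple null kept 26.2% ± 1.6 (SD, n = 4) of the control level, and its log2 difference was -1.92 (SE 0.09, adjusted p = 1.6e-09). Serpinc1, the gene of antithrombin, which inhibits thrombin and factor Xa, was at 849, 910, 847 and 900 RPKM in the FoxA3 null group, against 317, 323, 396 and 357 RPKM in the triple null group. All 4 triple null libraries were below all 4 controls, at 39.8% ± 4.1 (SD, n = 4) of their mean and with a log2 difference of -1.33 (SE 0.1, adjusted p = 2.66e-07).

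F5, F13b and F12 had triple null levels that overlapped those of FoxA3 null. F5, which encodes the cofactor of factor Xa, was at 110, 67.8, 56.6 and 66.7 RPKM in the FoxA3 null group, against 61, 54.7, 74.4 and 59.9 RPKM in the triple null group (log2 difference -0.23, SE 0.18, adjusted p = 0.364). F13b, which encodes the carrier subunit of factor XIII, was at 118, 86, 69 and 90.7 RPKM in the FoxA3 null group, against 78.8, 77.8, 106 and 79.6 RPKM in the triple null group (log2 difference -0.07, SE 0.17, adjusted p = 0.789). F12, which encodes the zymogen that starts the contact pathway, was at 322, 410, 522 and 403 RPKM in the FoxA3 null group, against 511, 526, 385 and 489 RPKM in the triple null group. Its groups overlapped, with a log2 difference of 0.22 (SE 0.14, adjusted p = 0.262). In the authors' deposited table of this comparison, which uses their own test, F12 has the opposite sign, with a log2 fold change of -0.32 and an adjusted p of 2.18e-05. That table lists 7 of the 10 genes as lower at an adjusted p under 0.05, beside 22.1% of its 10017 genes, and gives F11 a log2 fold change of -5.26, Proc -1.99 and F7 -0.98.

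Within a group, single libraries stood at the edge for many of these genes together. Triple null library 3 was the highest of its group for 8 of the 10 genes and the lowest for F12 and Proc. FoxA3 null library 1 was the highest of its group for 6 genes (F2, F5, F7, F9, F11 and F13b) and the lowest for F10, F12 and Proc, and FoxA3 null library 3 was the lowest for 7. Leaving out any one library of the 2 groups kept the count of called genes at 5.

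Where FoxA3 was present, deletion of FoxA1 and FoxA2 lowered 1 of the 10 genes, F11, beside 1.10% of all genes called lower. F11 was at 45.7, 41.6 and 21 RPKM in the lox libraries and at 9.41, 15.9, 14.5 and 13.6 RPKM in Cre alfp. Every Cre alfp library was below every lox library, but lox library 3 stood apart from the other 2. The Cre alfp mean was 37% ± 7.7 (SD, n = 4) of the lox mean, with a log2 difference of -1.32 (SE 0.23, adjusted p = 0.00347); with only these 2 groups in the fit the adjusted p was 0.0544 and the call ended. F2, at 652, 626 and 732 RPKM in lox and 521, 538, 530 and 477 RPKM in Cre alfp, had separate groups but a log2 difference of only -0.37 (SE 0.13, adjusted p = 0.111). Serpinc1, at 728, 707 and 847 RPKM in lox and 593, 688, 608 and 581 RPKM in Cre alfp, also had separate groups, with a log2 difference of -0.30 (SE 0.11, adjusted p = 0.143). F5 had separate groups in the other direction, at 39.6, 45.1 and 48.3 RPKM in lox and 61.2, 50.6, 50.2 and 67.9 RPKM in Cre alfp, with a log2 difference of 0.36 (SE 0.19, adjusted p = 0.359). How many of all genes have separate groups in this comparison is not given here. Proc overlapped, at 394, 430 and 456 RPKM in lox and 401, 433, 408 and 391 RPKM in Cre alfp. The hepatocyte marker sum was 34500 to 43300 RPKM in Cre alfp, against 48600 to 53400 in lox, with 1 of 12 called lower, and that of the erythroid markers 14.9 to 29.2, against 81.3 to 90.8, with 1 of 3 tested called lower and 1 higher. Of the cholangiocyte markers, summing to 7.8 to 12.9 against 8.89 to 20.9 RPKM, 1 of 3 tested was called lower; the part of these markers was not tested.

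The test of the difference between the deletion with and without FoxA3 (the interaction) was called for F11, Proc and Serpinc1, all lower without FoxA3, beside 3.54% of all genes called lower. The interaction was -2.79 (SE 0.31, adjusted p = 4.19e-05) for F11, -1.86 (SE 0.13, adjusted p = 5.69e-07) for Proc and -1.04 (SE 0.15, adjusted p = 0.000419) for Serpinc1. F2 (-0.98, adjusted p = 0.00208), F10 (-0.96, adjusted p = 0.00083) and F7 (-0.87, adjusted p = 0.0131) passed the p threshold, as did 6.17% of all genes in the lower direction, and missed the minimum difference. For F5, F9, F12 and F13b the adjusted p lay between 0.15 and 0.807. The Serpinc1 call ended, at values from -0.99 to -0.98, without lox library 2, Cre alfp library 2 or triple null library 1. Without lox library 3, or without Cre alfp library 4, F2 and F10 passed as well and 5 genes were called. Markers of some cell types moved in the interaction too. Called lower were 5 of 12 hepatocyte markers (median -0.86), 4 of 11 tested sinusoidal endothelium markers (all 11 below 0, 10 of them at an unadjusted p under 0.05, median -1.16), 2 of 5 stellate cell and fibroblast markers and 1 of 3 erythroid ones, and both tested neutrophil and monocyte markers were called higher; their part was not tested. If alfp is the transgene commonly so called, the means of deletion and its age differ between the arms. Neither could then be told apart from FoxA3 here. RNA of the deleted genes also differed between the arms. Foxa1 had means of 3.28 RPKM in the triple null and 1.24 RPKM in Cre alfp. For Foxa2 the means went the other way, at 0.366 and 1.09 RPKM. The part of this in the interaction was not tested.

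**Figure D2:**
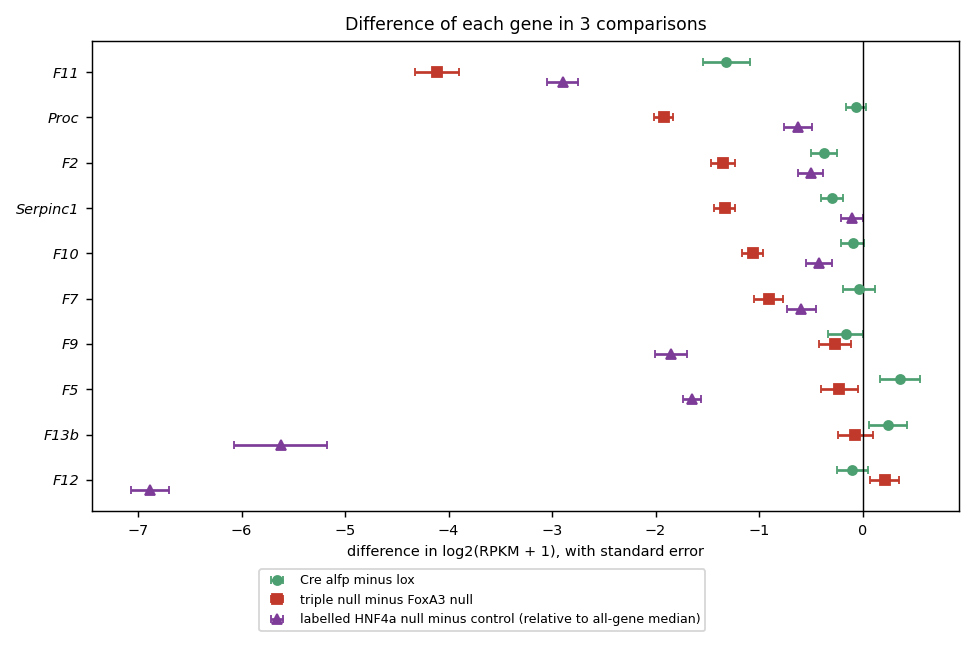
Difference in log2(RPKM + 1) (horizontal, with its standard error) of each gene (vertical) for 3 comparisons, that of liver shown relative to the median of all genes. F11 lies left of -1 in all 3, Proc, F2, Serpinc1 and F10 in the triple null, and F12, F13b, F9 and F5 in the libraries labelled HNF4a null.

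The remaining hepatocyte comparisons set libraries with FoxA3 against libraries without it, share groups with those above and carried a shift of all genes (median log2 difference 0.13 for triple null against lox, 0.12 for triple null against Cre alfp and 0.10 for FoxA3 null against lox). Libraries without FoxA3 came from mice injected with virus, and no injection is given for lox or Cre alfp mice. Virus could therefore not be told apart from FoxA3 in these comparisons. Against lox, the triple null had 4 genes called lower, beside 5.81% of all genes. Relative to the shift these were F11 at -4.40, Proc at -2.21, Serpinc1 at -1.26 and F2 at -1.24, while F7 (-1.01) and F10 (-0.99) were not called on the unshifted scale. Median scaling called F7 as well, while quantile normalization called F7 and ended the F2 call, at a log2 difference of -0.998. Against Cre alfp, the triple null had F11 (-3.08 relative to the shift) and Proc (-2.14) called lower, beside 5.03% of all genes, and quantile normalization added F7. In the authors' deposited tables, which use their own test, some genes not called here have log2 fold changes past -1. These are Serpinc1 against Cre alfp (-1.003), and F10 (-1.081) and F7 (-1.017) against undeleted controls. F13b is higher in both tables, by 0.312 and 0.573. F13b lay above every lox and every Cre alfp library in 4 of 4 triple null libraries, by a log2 difference of 0.94 against lox (adjusted p = 0.000975) and 0.69 against Cre alfp (adjusted p = 0.00455), both under the minimum before the shift is taken out; without lox library 3 it was called higher against lox, at 1.04. Between FoxA3 null and lox, F11 differed by -0.16 and Proc by -0.16 (adjusted p = 0.608 and 0.215), and by -0.26 each relative to the shift. F12 (-0.58, adjusted p = 0.0101), F5 (0.71, adjusted p = 0.0136) and F9 (0.49, adjusted p = 0.0364), not corrected for the shift, had separate groups and passed the p threshold without the minimum, beside 34.8% of all genes at that p in either direction. F13b was called higher in FoxA3 null than in lox, where 3.63% of all genes were called higher; it was at 39.6, 42.1 and 50.5 RPKM in lox and, in all 4 FoxA3 null libraries given above, higher than that. The F13b log2 difference of 1.01 (SE 0.18, adjusted p = 0.00154) is 0.91 relative to the shift. That call ended under median scaling, under quantile normalization and with the replicate number as a block (0.99). It also ended without lox library 1 or 2 or FoxA3 null library 1 or 4. Over all of these the difference was 0.88 to 1.00. Markers of some cell types moved in these comparisons as well. In the triple null, 6 of 12 hepatocyte and 6 of 11 tested sinusoidal endothelium markers were called lower against lox, and 5 of 12 and 8 of 11 against Cre alfp, while both tested neutrophil and monocyte markers were called higher in each. Of the other lists, 1 of 3 cholangiocyte markers was called lower against lox, 1 of 5 stellate cell and fibroblast markers and the 1 tested megakaryocyte and platelet marker against Cre alfp, and of 3 erythroid markers 1 lower in each and 2 higher against lox. Between FoxA3 null and lox, 1 of 11 sinusoidal endothelium, 1 of 3 cholangiocyte and 1 of 3 erythroid markers were called lower and 0 of 12 hepatocyte markers were called (limma; 1 lower and 3 higher at an unadjusted p under 0.05). The part of these markers was not tested. With the shift taken out by median scaling, the share of calls that were lower rose from 42.9% to 54.9% against lox, from 48.9% to 60.4% against Cre alfp and from 49.5% to 63.7% for FoxA3 null against lox.

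In the libraries labelled HNF4a null, F12 and F13b were all but lost, F11, F9 and F5 were lower, and the other 5 genes were not called. This was 5 of 10 genes called lower, beside 5.95% of all 12434 genes tested and 7.91% after median scaling. All genes shifted by a median of 0.34 in this comparison, and liver differences are given relative to it unless called tested; the median over the 10 genes was -1.14. The SE, the p-values and the calls belong to the tested difference, from which the shift is not taken out and which is therefore higher by 0.34. With median scaling, 65.8% of all calls were lower in place of 41.0%. The hepatocyte marker sum moved here too, with 9 of 12 markers called lower and 1 higher. Among the other cell types, 6 of 7 tested cholangiocyte markers were called higher, as were 2 of 3 neutrophil and monocyte markers, whose summed RPKM was 5.28 to 18.2 under the HNF4a null label, against 1.96 to 2.54 in control, and 1 of 10 Kupffer cell and macrophage markers; 1 of 3 erythroid markers was called lower. The part of these markers was not tested; Hnf4a RNA was itself higher in these libraries.

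F12 was at 198 and 191 RPKM in control liver, against 0.949, 0.963, 0.791 and 1.77 RPKM under the HNF4a null label. These libraries kept 0.575% ± 0.23 (SD, n = 4) of the control mean, a log2 difference of -6.89 (SE 0.18, adjusted p = 1.92e-06). F13b was at 88.9 and 77.3 RPKM in control, against 0.691, 0.661, 0.602 and 3.73 RPKM under the HNF4a null label. Its log2 difference was -5.62 (SE 0.45, adjusted p = 0.000214), and the library with barcode TAGCTTA, the highest for F13b, was also the highest of its group for 8 of the 10 genes. F11 was at 11.3 and 12.3 RPKM in control, against 1.52, 1.18, 1.22 and 0.816 RPKM under the HNF4a null label, 10% ± 2.5 (SD, n = 4) of the control level. The F11 log2 difference was -2.90 (SE 0.15, adjusted p = 3.9e-05), and F11 was lowest in the library where F12 and F13b were highest.

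F9 and F5, of the middle of the cascade, were lower but still present. F9 was at 64.6 and 54.6 RPKM in control, against 19.8, 22.1, 16.2 and 23.2 RPKM under the HNF4a null label (log2 difference -1.85, SE 0.16, adjusted p = 0.000482). F5 was at 53 and 54.7 RPKM in control, against 22.1, 20.9, 19.6 and 21.8 RPKM under the HNF4a null label (log2 difference -1.65, SE 0.09, adjusted p = 7.26e-05). Neither pair of groups overlapped, and the libraries labelled HNF4a null kept 34.1% ± 5.2 of F9 and 39.2% ± 2.1 of F5 (SD, n = 4).

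The genes not called in liver include the 4 that were called in the triple null beside F11. Serpinc1 was at 754 and 695 RPKM in control, against 849, 829.2, 806 and 926 RPKM under the HNF4a null label, all above control, with a tested log2 difference of 0.23 (SE 0.11, adjusted p = 0.109) and -0.10 relative to the shift. F2 was at 605 and 589 RPKM in control, against 515, 525, 488 and 608 RPKM under the HNF4a null label, and the groups overlapped (tested difference -0.17, SE 0.12, adjusted p = 0.268; -0.50 relative to the shift). F10 was at 154 and 141 RPKM in control, against 136, 129, 129 and 164 RPKM under the HNF4a null label, again with overlap (tested difference -0.09, SE 0.13, adjusted p = 0.573; -0.42 relative to the shift). Proc was at 230 and 223 RPKM in control, against 192, 164, 173 and 218 RPKM under the HNF4a null label, all below control, with a tested difference of -0.29 (SE 0.13, adjusted p = 0.105) and -0.62 relative to the shift. F7 was at 43.3 and 41.5 RPKM in control, against 39.5, 30.5, 32 and 40.4 RPKM under the HNF4a null label, also all below control (tested difference -0.26, SE 0.14, adjusted p = 0.157; -0.59 relative to the shift). How many of all genes lie wholly above or below the 2 control libraries is not given here. Scaling moved the p-values of Serpinc1, F2, F10, Proc and F7 and changed no call. Without scaling, 52.8% of all 12434 genes passed the limma p threshold in either direction. The shares under median scaling and quantile normalization are not given here. With median scaling Proc (-0.56, adjusted p = 0.0118), F2 (-0.43, adjusted p = 0.0171), F7 (-0.53, adjusted p = 0.0193) and F10 (-0.36, adjusted p = 0.0485) passed the p threshold under the minimum difference. With quantile normalization their adjusted p lay between 0.108 and 0.953, F10 was at 0.009, and Serpinc1 was higher by 0.47 (adjusted p = 0.0257). The authors' deposited table, by their own test, has all of the 10 but Serpinc1 lower at an adjusted p under 0.05, beside 24.9% of its 12244 genes; its log2 fold changes were -0.70 for Proc, -0.66 for F7, -0.57 for F2 and -0.46 for F10, against -7.66 for F12.

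Set side by side, 1 gene (F11) was called lower both after FoxA loss and in liver labelled HNF4a null, 4 (Proc, F2, Serpinc1 and F10) in the triple null and not in liver, 4 (F12, F13b, F9 and F5) in liver and not in the triple null, and F7 in neither. Beside this, 3.95% of all genes were called lower in the triple null and 5.95% in liver, and the share called lower in both is not given here. The first comparison was made in hepatocytes and the second in whole liver with separate fits, and the difference between them was not tested. The order of the 10 genes changed accordingly: F12 had the highest mean in the triple null, at 478 RPKM, and the lowest in the libraries labelled HNF4a null, at 1.12 RPKM. The libraries of F12 overlapped those of Serpinc1 in the triple null, and those of F11 and F13b under the HNF4a null label.

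Other genes of haemostasis were taken as 5 lists. Of their 37 genes in the matrix, 28 were tested in hepatocytes, of which 12 were called lower and 0 higher (limma; 17 lower and 2 higher at an unadjusted p under 0.05) in the triple null against FoxA3 null, beside the 3.95% of all genes called lower; their median log2 difference was -0.66. In liver 31 were tested, with 5 called lower, beside 5.95% of all genes, and 2 higher, beside 8.58%, and a median of -0.30 relative to the shift. Of the fibrinogen chains and F13a1, 3 were tested and 2 were called lower in the triple null, Fga at 41.3% and Fgb at 48.5% of FoxA3 null, and 0 were called in liver with limma, also at an unadjusted p under 0.05 (adjusted p from 0.115 to 0.419). F13a1, the catalytic partner of F13b that is made mostly outside hepatocytes, was under the filter.

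Among contact system and fibrinolysis genes, 5 of 9 tested were called lower in the triple null, again beside 3.95% of all genes. The largest differences were those of Plg, the gene of plasminogen (-2.80, adjusted p = 4.46e-09), Serpinf2, the gene of the plasmin inhibitor antiplasmin (-2.61, adjusted p = 5.57e-08), and Klkb1, the gene of prekallikrein, which factor XIIa activates (-1.51, adjusted p = 2.23e-05). In liver 3 of 9 were called lower and 2 higher, beside 5.95% and 8.58% of all genes. The p-values here too are those of the tested differences. Hrg, the gene of histidine-rich glycoprotein, fell to 11.7 from 221 RPKM (-4.55 relative to the shift, adjusted p = 0.000186) and Serpinf2 to 43.7 from 213 RPKM (-2.67, adjusted p = 0.00142). Kng2 (tested difference 1.22, adjusted p = 0.00298) and Habp2 (1.07, adjusted p = 0.000524) were called higher, but relative to the shift they were at 0.88 and 0.73, under the minimum, and for Kng2 there is the reserve that Kng1 and Kng2 are near-identical copies between which reads may be split.

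Inhibitors and cofactors other than Proc and Serpinc1 held the largest fall of these lists in the triple null. Of 6 tested, 3 were called lower in the triple null, beside 3.95% of all genes. Serpina10, the gene of the protein Z dependent inhibitor of factor Xa, was at 2.03 ± 0.39 RPKM (SD, n = 4) after FoxA loss, against 112 RPKM in FoxA3 null, with a log2 difference of -5.22 (adjusted p = 3.93e-13). Serpind1, the gene of heparin cofactor II, was at 22.5 against 221 RPKM (-3.24, adjusted p = 3.72e-10), and Proz, the gene of protein Z, at 16.4 against 100.3 RPKM (-2.54, adjusted p = 4.89e-07). In liver Proz fell to 1.64 from 108 RPKM (-5.71 relative to the shift, adjusted p = 5.85e-07) and Serping1, the gene of C1 inhibitor, to 65.7 from 137 RPKM (-1.41, adjusted p = 0.00548). These were 2 of 7 tested, beside 5.95% of all genes called lower. Serpind1 had means of 304 RPKM under the HNF4a null label and 180 in control, a tested difference of 0.75 (adjusted p = 0.00259), under the minimum, and 0.42 relative to the shift. Serpina10 had means of 84.1 RPKM under that label and 137 in control; its tested difference of -0.72 (adjusted p = 0.0197) was under the minimum, and that relative to the shift, -1.06, was past it.

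Of 9 genes of the vitamin K cycle, sulfation and secretion of factors, the 2 called lower in the triple null, beside 3.95% of all genes, were the tyrosine sulfotransferases Tpst1 (-2.39, adjusted p = 1.14e-07) and Tpst2 (-1.04, adjusted p = 0.00179); Tpst1 was also called in Cre alfp against lox (-1.83, adjusted p = 3.21e-05). Ggcx, the carboxylase of the vitamin K dependent factors, was at 15.1 RPKM in triple null hepatocytes, against 19.1 in FoxA3 null (adjusted p = 0.0694), and Vkorc1, which recycles vitamin K, at 363 and 349 RPKM (adjusted p = 0.852). In liver 0 of the 9 were called with limma, and 5 had an unadjusted p under 0.05. Among these, Tpst1 (adjusted p = 0.0288) and Vkorc1l1 (adjusted p = 0.0231) passed the p threshold without the minimum. Of all 12434 genes tested in liver, 52.8% passed that threshold in either direction. Of F3, F8 and Vwf, which cells other than hepatocytes make, F3 alone was tested in hepatocytes and none was called in either tissue (adjusted p from 0.202 to 0.864).

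**Figure D3:**
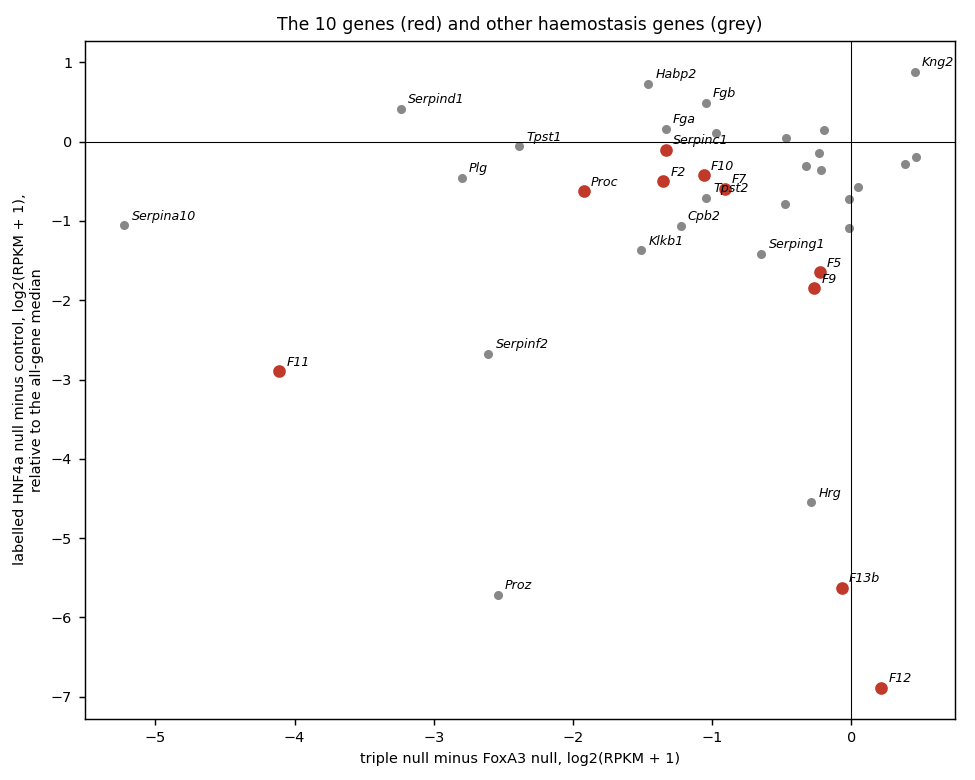
Each point is a gene tested in both tissues: difference in log2(RPKM + 1) of triple null minus FoxA3 null (horizontal) and of the libraries labelled HNF4a null minus control relative to the all-gene median (vertical). The 10 genes are red and the other haemostasis genes grey, named where called; F11, Serpinf2, Klkb1 and Proz were called lower on both axes.

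Genes next to the 10 on the chromosome did not all share their behaviour. The 2 protein-coding genes on each side were taken by their RefSeq order. F7, F10 and Proz lie in a row on chromosome 8. In the triple null F7 kept 52.4%, F10 47.8% and Proz 16.3% of the FoxA3 null level, while in liver Proz was nearly lost and F7 and F10 were not called. F11 lies beside Klkb1 on the same chromosome, and both were called lower in both comparisons. None of the neighbours of Proc, Serpinc1 or F2 that could be tested was called in the triple null (adjusted p from 0.00019 to 0.533, all log2 differences under the minimum).

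The genes whose levels followed each factor most closely over all 21 libraries were found by Pearson's r on log2(RPKM + 1) among 10764 other genes. These values describe libraries that share their groups and depth. Nearest to F11 were Ugt2b1 (r = 0.966), Ido2 (0.966) and Cyp8b1 (0.964). F12 was followed by C8a (0.998), C8g (0.995) and Apoa2 (0.995), and F13b by Apom (0.992), Aldh8a1 (0.99) and Ugt3a2 (0.988). Proc was followed by Vtn (0.979), Akap1 (0.952) and Apol9b (0.95), and Serpinc1 by Serpind1 (0.96), Aox3 (0.959) and Epb4.1l4b (0.948). F2 was followed by Col18a1 (0.946), Dnase2b (0.944) and Plg (0.939), and F10 by C1rl (0.976), Scrn2 (0.956) and Lcat (0.956). For F9 these were Mttp (0.966), Dnajc22 (0.962) and Arhgap42 (0.955), and for F5 Pcx (0.973), Tesk2 (0.959) and Ctage5 (0.956).

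The authors' deposited tables also set hepatoblasts, the fetal precursors of hepatocytes, and newborn hepatocytes against adult hepatocytes; the libraries behind them were not used here. In the authors' deposited table all 10 genes are lower in hepatoblasts than in adult hepatocytes at an adjusted p under 0.05, beside 37.9% of its 13473 genes. The authors' log2 fold changes run from -7.46 for F9 and -5.82 for F11 to -3.69 for F5. In the authors' deposited table of newborn against adult, 8 of the 10 are higher, beside 31.6% of 12176 genes, with the authors' log2 fold changes highest for F13b (1.63), F11 (1.58), F5 (1.44) and F2 (1.42). F9 has the opposite sign there (-0.86, adjusted p = 1.76e-09), and Serpinc1 does not pass (0.24, adjusted p = 0.0838). In the authors' deposited table of triple null against hepatoblast, 9 of the 10 are higher in the triple null at an adjusted p under 0.05, beside 37.6% of 13624 genes, from 2.87 for F7 to 7.50 for F9. F11 does not pass, with the authors' log2 fold change of 0.22 and an adjusted p of 0.709.

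**Figure D4:**
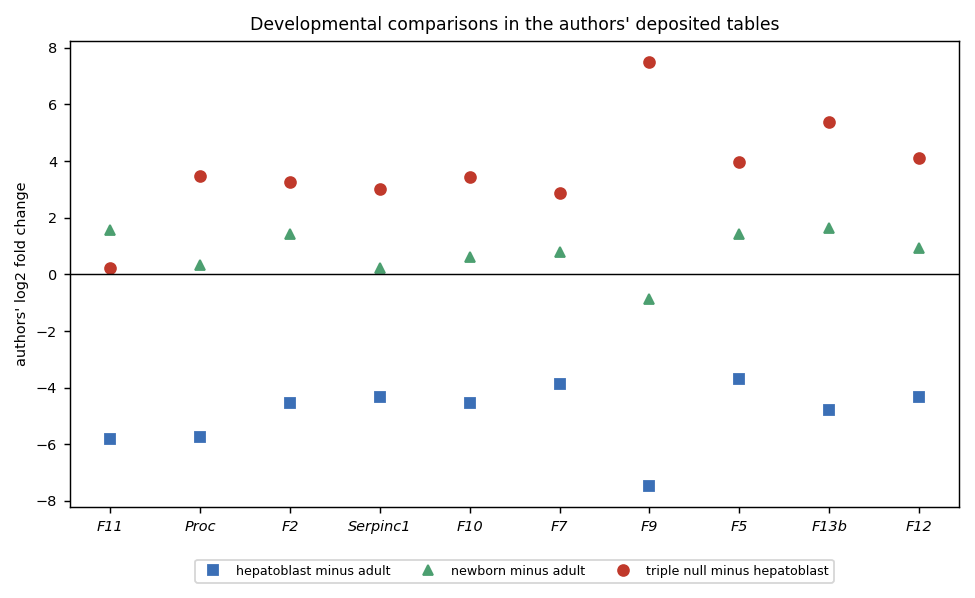
The authors' log2 fold changes (vertical) of the 10 genes (horizontal) in 3 deposited tables, 1 marker shape for each. Hepatoblast values lie between -7.46 and -3.69, and in the triple null against hepatoblasts F11 lies lowest, at 0.22, with the others from 2.87 to 7.50.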

How the data were processed

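Per the labels, all RNA libraries were made with 1 kit and read on 1 type of sequencer. The authors deposited RPKM values as 1 matrix; the submitters' processing notes name build mm9, Cufflinks 2.2.1, SAMtools and DESeq2, without saying which step each made. Of its columns, 21 matched a sample or group by name and 9 did not and were not used. Of values above 0, 2.9% were under 1e-06, so not all are plain scaled read numbers. The deposited comparison tables hold the authors' log2 fold changes and p-values; the sign of the table against undeleted controls was turned, and the unadjusted p-value column of the Cre alfp table was adjusted by Benjamini-Hochberg. Liver libraries carry barcodes for replicate numbers.

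limma 3.58.1 (R 4.3.3; lmFit and trended eBayes) was run on log2(RPKM + 1), without covariates: 1 fit of 15 hepatocyte libraries (RPKM of at least 1 in at least 3), 1 of 6 liver libraries (at least 2). The fits were tested on simulated data. A gene was called at a Benjamini-Hochberg adjusted p-value under 0.05 and an absolute log2 difference of at least 1. Percentages kept are a group's mean over the control mean, with that group's SD over the control mean. For groups said to be separate or not to overlap, the share of all genes like that is not given. No 2 libraries of a group were alike beyond 0.009% of identical values. The genes and lists were chosen with earlier results of these data known. All 10 genes are named; of each other list, up to 3 called genes with the largest difference per comparison; of nearest patterns, 3 per called gene; Ggcx, Vkorc1, Serpind1, Serpina10 and Habp2 in liver and genes at the p threshold were named after their values were seen. Alternatives were a pseudocount of 0.1, no filter, median scaling, quantile normalization, no minimum difference, the compared groups only, a replicate block and leaving out each library. The HNF4a peaks were not used, since their build differs from the gene tables' GRCm38.p6. Some genes of the lists and neighbours are not reported here.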

Additional observations from a re-analysis of the deposited data

Results flagged for a closer look

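F13b in triple null library 3, at 106 RPKM, lay far above the other 3 triple null libraries, at 77.8 to 79.6 RPKM. F13b in the library labelled HNF4a null with barcode TAGCTTA, at 3.73 RPKM, lay far above the other 3, at 0.602 to 0.691 RPKM; without it the F13b log2 difference was -5.67 in place of -5.29, before the shift of all genes is taken out. Of 40 groups of 4 libraries tested for a library apart, 2 had one, and chance flags about 1 in 20.

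The effect of deleting FoxA1 and FoxA2 differed between FoxA3-null and FoxA3-carrying hepatocytes, by the interaction in limma at an adjusted p under 0.05, for 6 genes: F11 (-2.79), Proc (-1.86), Serpinc1 (-1.04), F2 (-0.98), F10 (-0.96) and F7 (-0.87). At that p alone, 6.17% of all 11500 genes were lower. The last 3 missed the minimum difference.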

How the results depend on the processing

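Of 1040 values of single genes under the alternatives, 1000 kept their call, 12 lost and 28 gained one, and no called value changed sign; 15 uncalled values did. The count of called genes in the triple null against FoxA3 null was 6, with F7, under quantile normalization and without the minimum difference (then beside 29.7% of all genes), and 5 under the other alternatives; in liver it was 5 under each, also without the minimum, where 52.8% of all genes passed. Against lox, Cre alfp had 0 with these groups only. With quantile normalization the interaction had 5. Without the minimum difference, the interaction had 6, beside 14.4% of all genes, and the triple null 7 against lox (42.5%) and 7 against Cre alfp (41.2%), 6 of each lower and F13b higher. FoxA3 null then had 4 against lox, beside 34.8%, of which 1 was lower. FoxA3 null against lox had 0 under median scaling and quantile normalization. Leaving out libraries gave 2 to 5 for the interaction, 4 to 5 for triple null against lox, where the fifth was F13b called higher, and 0 to 1 for FoxA3 null against lox; where 1 control liver was left, it was assumed to vary like the others. Same-numbered libraries did not deviate together: 3 of 21 pairs correlated above 0.1 (range -0.36 to 0.17). With the replicate number as a block, FoxA3 null against lox had 0 genes called and no other count changed. Among all genes, dropping the minimum difference gave 3413 in place of 933 for the triple null against FoxA3 null and 6569 in place of 1807 in liver. For Cre alfp against lox, leaving out lox library 1 gave 177 in place of 274, and fitting the compared groups only gave 182. For FoxA3 null against lox, a pseudocount of 0.1 gave 1303 in place of 827. Absolute depth is unknown, and the liver libraries, the shallowest, limit values near 1 RPKM most.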
